A study of Mus musculus with 12 samples.

Results

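The genes described here are 10 genes of the corticosteroid response in the mouse heart, out of 78317 gene IDs in the deposited count table. They were taken by symbol: the glucocorticoid receptor Nr3c1, the mineralocorticoid receptor Nr3c2, the hormone-activating enzyme Hsd11b1, and the hormone targets Fkbp5, Tsc22d3, Zbtb16, Klf9, Ddit4, Sgk1 and Cdkn1a. Each symbol matched 1 gene ID, and all 10 passed the filter on low counts. RNA of snap-frozen heart ventricle was sequenced in bulk from C57BL/6J offspring that were not injured themselves. The injured-sire group had 6 libraries from offspring of males given a cardiac cryoinjury, a freezing injury of the heart, on postnatal day 1. The uninjured-sire group had 6 libraries from offspring of males without that injury. By the labels, 3 of the 6 injured-sire offspring were male, as were 4 of the 6 uninjured-sire offspring, without the sex of each animal. Collection was labelled 3 wpp, while the same text called the offspring adult. No label gave the sire, litter, hour of collection or batch of an animal, so the p-values cover animal-to-animal spread in these libraries alone, and shared litters would lead to p-values that are too low.

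Corticosterone, the main glucocorticoid of mice, is released by the adrenal gland under stress and with a daily rhythm. It enters cells, binds the receptor encoded by Nr3c1, and the complex moves to the nucleus, where it binds DNA and switches target genes on or off. Cardiac muscle also carries the receptor encoded by Nr3c2, which binds aldosterone and corticosterone, and in cells with little Hsd11b2, the enzyme that inactivates corticosterone, that receptor is mostly occupied by glucocorticoid. Fkbp5, Tsc22d3, Zbtb16, Klf9, Ddit4 and Sgk1 are widely used as readouts of the hormone's action.

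The DNA element that both receptors bind as dimers is an inverted repeat, written AGAACA, then any 3 bases, then TGTTCT, and either of these 6-base arms can occur alone. The motifs were searched on both strands in RefSeq promoter windows of build GRCm38.p6, which reach from 250 bases before a transcription start to 50 bases after it. The full element occurred in 3 of 32817 windows of all genes (0.00914%), and 1 of these was a window of Sgk1. Of the 10 genes, 8 had windows in the table, 16 in all. A single arm was present in 4 of these 16 windows, from Sgk1 and Tsc22d3, against 19% of all windows, and each full element holds a pair of arms. The E-box CACGTG, the motif bound by the clock factors, was present in 2 of the 16 windows, from Sgk1 and Fkbp5, against 7.15% of all windows. The TATA box TATAAA was present in 2 of the 16, both from Sgk1, against 13.6% of all windows. A match describes these letters and is no evidence of binding. The following stretches show the full element, an E-box and a lone arm, each with the match in capitals. They lie 5′ of the start, at chr10:21993651-21993765 on the plus strand for Sgk1, at chr17:28486263-28486368 on the minus strand for Fkbp5, and at chrX:140600652-140600757 on the minus strand for Tsc22d3.
Sgk1: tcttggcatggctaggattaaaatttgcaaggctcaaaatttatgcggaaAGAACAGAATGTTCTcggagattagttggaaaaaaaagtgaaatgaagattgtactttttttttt
Fkbp5: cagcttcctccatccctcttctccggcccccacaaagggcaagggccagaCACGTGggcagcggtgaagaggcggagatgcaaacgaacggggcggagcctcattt
Tsc22d3: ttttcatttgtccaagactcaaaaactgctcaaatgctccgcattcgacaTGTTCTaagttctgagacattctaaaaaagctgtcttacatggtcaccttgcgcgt
The element of Sgk1 begins at position -189 from its start, the E-box of Fkbp5 at -169 and the arm of Tsc22d3 at -185. These windows belong to single starts, and the counts, which are per gene, do not tell starts apart.

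Libraries held 30537315 to 42090257 counts. As in the submitters' own downstream analysis, replicate 16 of the injured-sire group, named in the labels as a principal component outlier, was left out, so 5 libraries were compared with 6. Its values are given beside the others, scaled together with all 12 libraries. All 10 cardiomyocyte markers were present in every library, with a summed level of 90460 to 103600 CPM (counts scaled to 1e+06 per library with TMM factors) in injured-sire and 85990 to 98630 CPM in uninjured-sire libraries. Airway markers were spread unevenly, with a summed level of 39.9 to 637.7 CPM in injured-sire and 1.77 to 392.5 CPM in uninjured-sire libraries over 10 genes, none of them at 0 throughout, and fat markers with 177.9 to 554.3 CPM in injured-sire against 49.1 to 432.2 CPM in uninjured-sire libraries. The summed level of 6 smooth muscle markers did not overlap, with 1565 to 1800 CPM in injured-sire and 1257 to 1517 CPM in uninjured-sire libraries. All 6 of these markers were higher in injured-sire offspring (median log2 fold change 0.42), each overlapped between the groups when taken alone, and none was called. Summed levels of the other cell type lists overlapped. Some of these also leaned to one side: 0 of 8 lymphocyte markers were higher (median -0.46), 0 of 5 erythroid (-0.19), 2 of 8 macrophage (-0.07) and 5 of 5 tested neutrophil markers (0.62). So did airway markers, with 8 of 8 tested higher (1.27), and fat markers, with 8 of 9 tested higher (0.68). The median summed airway level was 247.4 CPM in injured-sire against 4.02 CPM in uninjured-sire libraries. Of 6 atrial markers, 5 were higher (median 0.06) and 1 was called, against 0.105% of all genes tested. The part of smooth muscle RNA, or of RNA of these other cells, in the differences below was not tested. In bulk tissue, fewer cells of a type and less RNA per cell cannot be told apart.

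None of the 10 genes differed between the groups past the threshold. Of the 17130 genes tested, 18 did (0.105%, with 0.0525% higher and 0.0525% lower), at an adjusted p below 0.05 in the quasi-likelihood test of edgeR, and none of these was among the 10. Without the adjustment, 3 of the 10 had an edgeR p below 0.05, all of them higher in injured-sire offspring, against 8.96% of all genes tested (4.28% higher and 4.68% lower). These 3 were Nr3c2, Ddit4 and Klf9. The DESeq2 Wald test, which called 134 genes in all, called Ddit4, and limma voom called none of the 10. Fold changes were above 0 for 9 of the 10, against 50.1% of all genes tested, with a median log2 fold change of 0.18, against 0.000193 over all genes. Without replicate 17, those of Fkbp5 and Cdkn1a were -0.000357 and -0.212, and further signs turned under other alternatives, given below. The 10 genes were chosen with earlier results of these data known, so this count is a description and no test. No gene had groups that did not overlap, against 1.06% of all genes tested (0.432% higher and 0.625% lower).

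**Figure D1:**
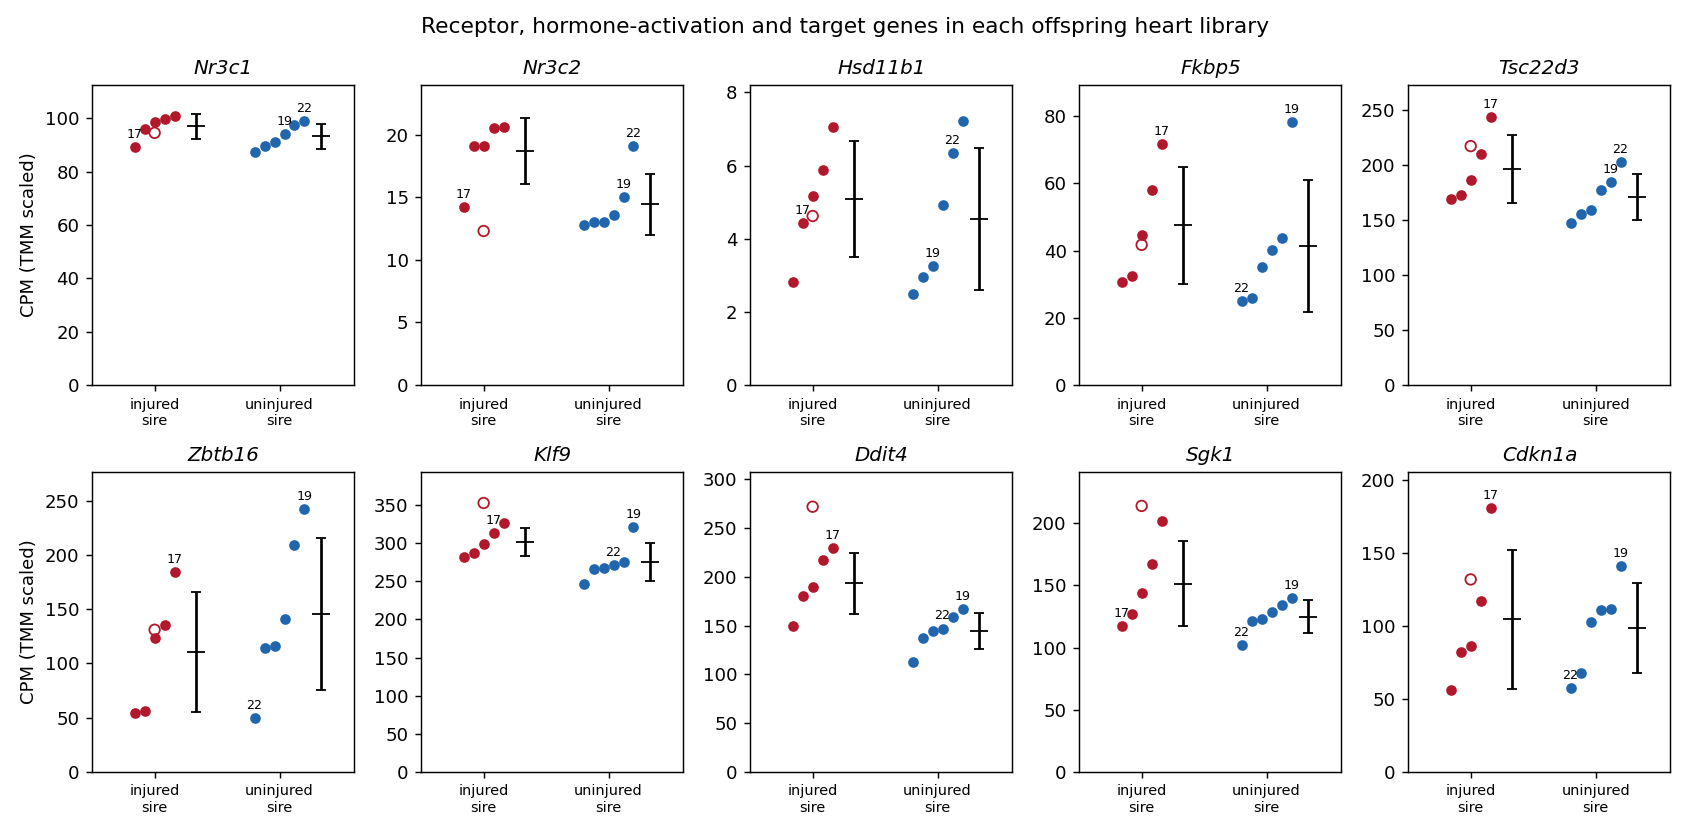
CPM of each gene in each library, with injured-sire offspring in red and uninjured-sire offspring in blue, black bars for the mean and SD (n = 5 and 6), an open circle for replicate 16, and labels at replicates 17, 19 and 22. The groups overlap for every gene, Fkbp5, Zbtb16 and Cdkn1a spread widely within both groups, and Nr3c2 of replicates 17 and 22 lies with the other group.

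Per kilobase of exon, the 10 genes covered a wide range of levels. Ddit4 was highest at 110.2 ± 17.9 CPM per kilobase in injured-sire and 82.2 ± 10.8 in uninjured-sire libraries (SD, n = 5 and 6), followed by Klf9, with 62.7 ± 3.82 and 57.1 ± 5.22, and Tsc22d3, with 45.2 ± 7.11 and 39.4 ± 4.87. Cdkn1a, Sgk1 and Zbtb16 came next, with overlapping ranges that reached from 9.34 to 50.9 CPM per kilobase over the 11 libraries. Neighbours in this order overlapped in range from Ddit4 down to Nr3c1, and Fkbp5 overlapped with Nr3c2. Fkbp5 (2.65 to 8.31 CPM per kilobase) lay below Nr3c1 in all 11 libraries, and Hsd11b1 (0.585 to 1.70) lay below Nr3c2 in all of them.

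The receptor genes came first in the pathway, and they differed in how much they varied. Nr3c1 (ENSMUSG00000024431, chromosome 18, 39543598 to 39652474, minus strand, GRCm39) had 101, 96.2, 98.8, 99.7 and 89.4 CPM in injured-sire replicates 12, 13, 14, 15 and 17. In uninjured-sire libraries it had 87.5 CPM at the lowest, 92.7 at the median and 99 at the highest, and replicate 16 had 94.6 CPM. The groups overlapped throughout, and the level was nearly constant: the coefficient of variation was 4.82% in injured-sire and 4.86% in uninjured-sire libraries, and 7.14% of all genes tested varied as little or less in the uninjured-sire group. The log2 fold change was 0.06 ± 0.0542 (SE), with a 95% confidence interval of -0.05 to 0.17 and an edgeR adjusted p of 0.815.

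Nr3c2 (ENSMUSG00000031618, chromosome 8, 77626070 to 77971641, plus strand) had 19.1, 20.5, 19.1, 20.6 and 14.2 CPM in injured-sire replicates 12, 13, 14, 15 and 17. Its uninjured-sire libraries had 12.8 CPM at the lowest, 13.3 at the median and 19.1 at the highest. Most libraries thus fell at 1 of 2 levels, and 1 library of each group lay at the other group's level: injured-sire replicate 17 at 14.2 CPM, and uninjured-sire replicate 22 at 19.1 CPM, while the next highest uninjured-sire library had 15 CPM. Replicate 16, not in the comparison, had 12.3 CPM, below all uninjured-sire libraries. The mean was 18.7 ± 2.60 CPM (SD, n = 5) in injured-sire and 14.4 ± 2.44 CPM (SD, n = 6) in uninjured-sire offspring, a log2 fold change of 0.37 ± 0.113 (SE; 95% confidence interval 0.14 to 0.61) with an edgeR adjusted p of 0.254. Per kilobase, Nr3c1 exceeded Nr3c2 by 3.96-fold to 5.30-fold in injured-sire libraries (median 4.36) and by 4.36-fold to 6.32-fold in uninjured-sire libraries (median 5.67). The highest ratio of the injured-sire libraries was again that of replicate 17, and the lowest of the uninjured-sire libraries was that of replicate 22. Replicate 16, outside the comparison, had a ratio of 6.49, above all 11 others.

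Hsd11b1 encodes the enzyme that regenerates corticosterone from its inactive form inside cells. It was the lowest of the 10 genes, with 2.82, 5.18, 5.89, 7.04 and 4.44 CPM in injured-sire replicates 12, 13, 14, 15 and 17, and 2.49 to 7.22 CPM (median 4.097) in uninjured-sire libraries. The ranges nearly coincided, and the log2 fold change was 0.17 ± 0.292 (SE; 95% confidence interval -0.46 to 0.79; edgeR adjusted p = 0.924). With 1 library left out it lay between 0.0178 (without replicate 15) and 0.347 (without replicate 23). The gene (chromosome 1, 192903942 to 192946383, minus strand) had 103 to 290 counts, and it lies inside the span of Lamb3 on the opposite strand, which had 686 to 1430. The file header gives a stranded count. Of 12 genes for corticosteroid synthesis, inactivation and transport, 6 had enough counts for a test, and none was called (4 higher, 2 lower, median log2 fold change 0.09). H6pd, which supplies the cofactor of the Hsd11b1 enzyme, had 63.9 ± 3.60 CPM in injured-sire and 59.1 ± 3.01 CPM in uninjured-sire offspring (log2 fold change 0.11 ± 0.0576, SE). Next by p came Srd5a1, a steroid reductase gene (0.31 ± 0.290), and Star, which carries cholesterol into mitochondria (0.40 ± 0.380, and 0.078 without replicate 12, which had 2.45 CPM). Hsd11b2 lay at 0.177 CPM per kilobase, against 11.7 for H6pd. The adrenal enzyme genes Cyp11b1 and Cyp11b2 had 0 counts in all 12 libraries, Hsd3b1 at most 1, Cyp21a1 at most 7 and Cyp11a1 at most 18.

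Of 20 genes for the chaperones and coregulators that hold and assist the receptors, none was called, with 7 higher, 13 lower and a median of -0.01 (log2). Dnajb1, a heat shock protein 40 gene, was the only one with an unadjusted edgeR p below 0.05, at 18.1 ± 3.07 CPM in injured-sire and 15.6 ± 1.08 CPM in uninjured-sire offspring (log2 fold change 0.21 ± 0.0985, SE; edgeR adjusted p = 0.541). Replicate 17 had 23.5 CPM, against at most 17.7 in the other injured-sire libraries, and the log2 fold change of Dnajb1 was 0.0976 without it. The acetyltransferase genes Crebbp (-0.13 ± 0.0781) and Ep300 (0.10 ± 0.0652) had the next smallest p.

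Fkbp5 encodes a co-chaperone that lowers the hormone affinity of the receptor and is itself induced by the hormone. The gene (ENSMUSG00000024222, chromosome 17, 28618068 to 28736501, minus strand) had 44.7, 58.0, 30.5, 32.4 and 71.6 CPM in injured-sire replicates 12, 13, 14, 15 and 17. It had 24.9 CPM at the lowest, 37.7 at the median and 78.3 at the highest in uninjured-sire libraries. The highest library of all was uninjured-sire replicate 19 and the next was injured-sire replicate 17, so both groups reached from low to high. The spread within a group was 2.35-fold in injured-sire and 3.14-fold in uninjured-sire libraries, and 87.9% of all genes tested varied as little or less in the uninjured-sire group. The log2 fold change was 0.20 ± 0.351 (SE; 95% confidence interval -0.59 to 0.99; edgeR adjusted p = 0.926). It was -0.000357 without replicate 17 and 0.48 without replicate 19.

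Zbtb16, a zinc-finger repressor gene (chromosome 9, 48565597 to 48747522, minus strand), and Cdkn1a, which encodes the cell cycle inhibitor p21 (chromosome 17, 29309950 to 29319701, plus strand), spread as widely. Zbtb16 had 123, 135, 54.1, 56.5 and 184 CPM in injured-sire replicates 12, 13, 14, 15 and 17, and 49.4 to 242 CPM (median 128.4) in uninjured-sire libraries. It was the only one of the 10 with a negative fold change, -0.39 ± 0.462 on the log2 scale (SE; 95% confidence interval -1.44 to 0.65; edgeR adjusted p = 0.871). With 1 library left out it lay between -0.655 (without replicate 17) and -0.186 (without replicate 19), and was also nearer 0 by over 1.5 times without 14 (-0.22), 15 (-0.227) or 20 (-0.26). Cdkn1a had 86.5, 117, 56.3, 82.2 and 181 CPM in the same injured-sire libraries, and 57.7 to 141 CPM (median 106.8) in uninjured-sire libraries. Its log2 fold change was 0.08 ± 0.332 (SE; 95% confidence interval -0.67 to 0.83; edgeR adjusted p = 0.971). For both genes, and for Fkbp5, the intervals include a change of 1.5-fold in either direction, so a difference of that size is not excluded here.

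Klf9, a Krüppel-like transcription factor gene (chromosome 19, 23118590 to 23145498, plus strand), had 299, 327, 282, 287 and 313 CPM in injured-sire replicates 12, 13, 14, 15 and 17. In uninjured-sire libraries it had 247 to 322 CPM (median 269.8), and all of them except replicate 19 lay below the lowest injured-sire library of the comparison. Replicate 16 had 353 CPM, the highest of the 12. The log2 fold change was 0.13 ± 0.0617 (SE; 95% confidence interval 0.01 to 0.26; edgeR adjusted p = 0.531). Tsc22d3 encodes a leucine zipper protein through which glucocorticoids dampen inflammation (chromosome X, 139440277 to 139501408, minus strand). It had 169, 210, 173, 186 and 243 CPM in the injured-sire replicates in the same order, and 147 to 203 CPM (median 168.0) in uninjured-sire libraries. The groups overlapped over most of their range, with a log2 fold change of 0.20 ± 0.103 (SE; 95% confidence interval -0.02 to 0.42; edgeR adjusted p = 0.605), and 0.109 without replicate 17.

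Ddit4 encodes an inhibitor of the growth kinase complex mTORC1 and is induced by glucocorticoids, low oxygen and other stresses. It had the largest fold change of the 10 (chromosome 10, 59785491 to 59787656, minus strand). Injured-sire replicates 12, 13, 14, 15 and 17 had 190, 217, 150, 180 and 230 CPM, and uninjured-sire libraries had 113 CPM at the lowest, 145.2 at the median and 167 at the highest. Replicate 14 was the only injured-sire library below the highest uninjured-sire one, and replicate 16, at 272 CPM, was above all others. The mean was 193.3 ± 31.4 CPM (SD, n = 5) in injured-sire and 144.3 ± 18.96 CPM (SD, n = 6) in uninjured-sire offspring, a 1.34-fold difference (0.42 ± 0.117 as log2, SE; 95% confidence interval 0.17 to 0.68) with an edgeR adjusted p of 0.254. The DESeq2 Wald test called it (log2 fold change 0.42, adjusted p = 0.00625), as did edgeR with no filter (adjusted p = 0.0001) and with airway and fat scores as covariates (log2 fold change 0.60, adjusted p = 0.0222). Over all genes these fits called 134, 236 and 20, against 18 in the main fit. With no filter, 5893 of 38125 genes had an unadjusted edgeR p below 0.05, against 1534 of 17130 in the main fit. Over all 24 alternatives the log2 fold change of Ddit4 ran from 0.35 to 0.60 and its adjusted p from 0.0001 to 0.837.

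Sgk1, a kinase gene that acts on ion channels and transporters and responds to both receptors (chromosome 10, 21758083 to 21875802, plus strand), had 202, 167, 127, 144 and 117 CPM in injured-sire replicates 12, 13, 14, 15 and 17. It had 102 to 140 CPM (median 125.9) in uninjured-sire libraries. Replicates 12, 13 and 15 stood above that range, 14 and 17 lay within it, and replicate 16 had 214 CPM, the highest of the 12. The log2 fold change was 0.28 ± 0.137 (SE; 95% confidence interval -0.03 to 0.58; edgeR adjusted p = 0.598), and 0.148 without replicate 12.

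**Figure D2:**
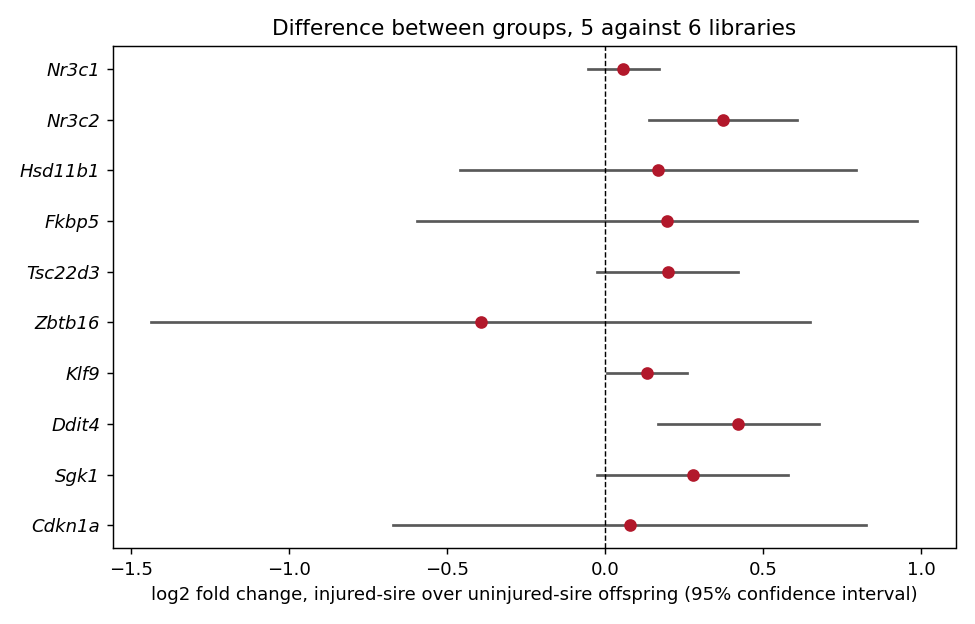
Log2 fold change of each gene, injured-sire over uninjured-sire offspring, as a point with its 95% confidence interval from edgeR (5 against 6 libraries). The intervals of Nr3c2, Klf9 and Ddit4 exclude 0 before adjustment for the number of genes tested, and those of Fkbp5, Zbtb16 and Cdkn1a are the widest.

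Among 36 further glucocorticoid targets, Nfkbia, which encodes an inhibitor of NF-kB, rose and none fell in the edgeR test adjusted over all genes. It had 111, 121, 99.1, 105 and 91.1 CPM in injured-sire replicates 12, 13, 14, 15 and 17, and 67.7 to 87.2 CPM in uninjured-sire libraries, so the groups did not overlap (log2 fold change 0.49 ± 0.0776, SE; edgeR adjusted p = 0.0107). Among the 36, 23 were higher and 13 lower (median 0.08 as log2 fold change), and 15 had an unadjusted edgeR p below 0.05, 11 higher and 4 lower, against 4.28% higher and 4.68% lower over all genes tested. Next by p were Arrdc2, an arrestin-domain gene, with 58.4 ± 7.70 CPM in injured-sire and 37.3 ± 8.34 CPM in uninjured-sire offspring (log2 fold change 0.65 ± 0.153, SE; edgeR adjusted p = 0.189), and Anxa1, the gene of the anti-inflammatory protein annexin A1, with 37.0 ± 2.95 and 30.3 ± 3.79 CPM (0.29 ± 0.0846; edgeR adjusted p = 0.238). The groups of 3 of these targets did not overlap, all of them higher, against 0.432% of all genes tested: Nfkbia, Arrdc2 and, named after its values were seen, Errfi1, a feedback inhibitor of the EGF receptor family (0.58, edgeR adjusted p = 0.337). The 4 with lower values, likewise named after they were seen, were Pdk4, which restrains glucose oxidation, with 1746 CPM in injured-sire and 2485 CPM in uninjured-sire offspring (log2 fold change -0.51), the lipase inhibitor gene Angptl4 (-0.88), Txnip (-0.51) and the prostaglandin synthase gene Ptgds (-0.50), with edgeR adjusted p of 0.320 to 0.511. Ptgds was called lower by the DESeq2 Wald test (-0.50, adjusted p = 0.0259) and by edgeR with no filter (-0.52, adjusted p = 0.000188), and Arrdc2 higher by both (adjusted p of 0.0174 and 0.000161). Those 2 fits called 134 and 236 genes in all. Also higher with an unadjusted edgeR p below 0.05, and named after they were seen, were Cebpd (0.29), Per1 (0.61), Mertk (0.34) and Klf15 (0.20). The same held for Rasd1 (0.79), Gadd45b (0.30) and Mfsd2a (2.48, at means of 1.20 and 0.213 CPM). Their edgeR adjusted p was 0.340 to 0.556. The targets of the same hormone thus held values on both sides of 0, with more of them above it. These 36 genes, like the other lists, were chosen with earlier results of these data known. Counts over them are therefore a description and no test. Nfkbia is also an NF-kB target, and it was not called in 2 covariate fits: with the airway and fat scores the log2 fold change was nearly the same, at 0.48 (edgeR adjusted p = 0.0551), and with the clock score it was 0.21 (edgeR adjusted p = 0.917).

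Of 10 mineralocorticoid-responsive genes, none was called (7 higher, 3 lower, median log2 fold change 0.11). The protease gene Adamts1 had 96.4 ± 6.36 CPM in injured-sire and 70.7 ± 20.8 CPM in uninjured-sire offspring (0.45 ± 0.190 on the log2 scale, SE; edgeR adjusted p = 0.531). Other pathways feed into Cdkn1a and Ddit4. Of 12 p53 targets, none was called, 6 higher and 6 lower with a median of -0.01. Trp53inp1, a stress-induced p53 target, had 58.0 ± 18.99 CPM in injured-sire and 31.1 ± 7.38 CPM in uninjured-sire offspring (0.90 ± 0.238, SE, edgeR adjusted p = 0.277). It was the only one of the 12 with groups that did not overlap, against 0.432% of all genes tested in that direction. The DESeq2 Wald test, with 134 calls in all, called it (adjusted p = 0.0372). Eda2r differed by -0.44 ± 0.201 and Sesn2 by 0.31 ± 0.166. Of 11 hypoxia and ATF4 targets tested, none was called, 8 higher and 3 lower with a median of 0.05, and the 3 with the smallest p were Asns (0.42 ± 0.278), Atf5 (-0.10 ± 0.0689) and Chac1 (0.21 ± 0.151), with an unadjusted edgeR p of 0.142 to 0.172.

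Between animals of the same group, some of the 10 genes varied together. Values were taken as log2 CPM minus the group mean over the 11 libraries, and 19 correlations were computed, 9 with Fkbp5 and 10 with a clock score, with exact two-sided permutation within groups (86400 arrangements) and Benjamini-Hochberg adjustment over the 19. Cdkn1a followed Fkbp5 most closely (Pearson r = 0.91, permutation p = 2.31e-05, adjusted 0.00044; Spearman rho = 0.96, permutation p = 2.31e-05, adjusted 0.00044), and r was 0.93 without the 2 libraries farthest from the median of Fkbp5, replicates 17 and 19. In the 6 uninjured-sire libraries alone r was 0.92, and the correlation passed under all 15 alternatives. Zbtb16 also followed Fkbp5 (r = 0.87, permutation p = 0.00226, adjusted 0.0214; rho = 0.92, permutation p = 0.00088, adjusted 0.00836; r = 0.85 without replicates 17 and 19), and without replicate 17 alone its adjusted permutation p was 0.0566. Klf9 had r = 0.79 (permutation p = 0.0127, adjusted 0.0401; rho = 0.74, permutation p = 0.0203, adjusted 0.0824), which fell to 0.53 without replicates 17 and 19. Its call was lost in 11 of 15 alternatives, and r was lowest, at 0.58, without replicate 19.

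The remaining correlations with Fkbp5 did not pass. Ddit4 had r = 0.52 and Tsc22d3 r = 0.41, and both dropped without replicates 17 and 19, to 0.16 and -0.01. The groups differed for both: r was 0.94 and 0.83 in injured-sire libraries, against 0.17 and 0.06 in uninjured-sire libraries. That difference was not tested. Sgk1 had r = 0.23 and Nr3c2 r = -0.36, while Nr3c1 (r = -0.57) and Hsd11b1 (r = -0.58) ran opposite to Fkbp5, each with an adjusted permutation p of 0.185. Without replicates 17 and 19, r was 0.58 for Sgk1, -0.36 for Nr3c2, -0.74 for Nr3c1 and -0.65 for Hsd11b1. The genes most like Fkbp5 by the same measure, out of 12494 genes ranked, were Picalm (r = 0.97), Bcl2l1 (0.93), Fam107a (0.93), Sult1a1 (0.92) and Mxd4 (0.92), over 11 libraries. Cdkn1a ranked at place 9 and Zbtb16 at place 34. These 5 were picked as the highest of many values, so their r describes these libraries, and no p is given.

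**Figure D3:**
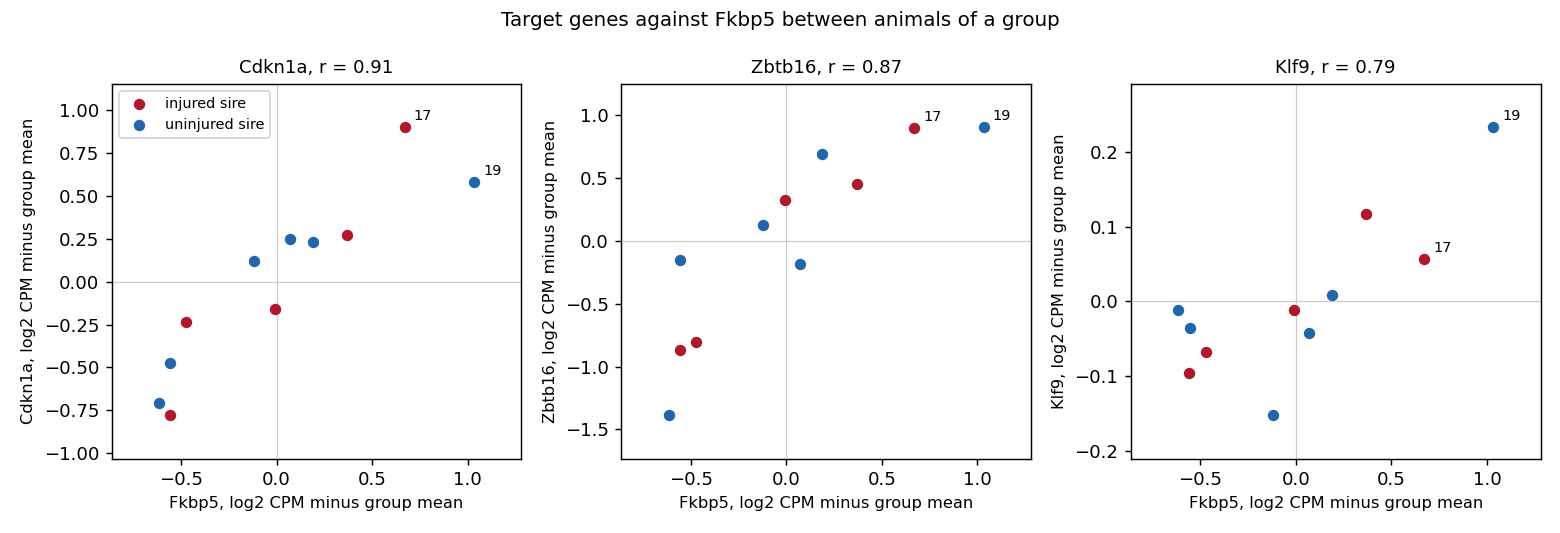
Log2 CPM of Cdkn1a, Zbtb16 and Klf9 against that of Fkbp5, each minus its group mean, for the 5 injured-sire (red) and 6 uninjured-sire (blue) libraries, with replicates 17 and 19 labelled. Cdkn1a and Zbtb16 rise with Fkbp5 along the whole range, while for Klf9 replicate 19 lies far from the others.

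Corticosterone and the clock are linked through the daily rhythm, so the clock state of the libraries is given beside these values. The clock score was the mean log2 CPM of Per2, Per3, Dbp, Tef, Hlf, Ciart and Nr1d2 minus that of Arntl, Npas2 and Clock. It was 2.23, 2.52, 2.7, 2.28 and 0.96 in injured-sire replicates 12, 13, 14, 15 and 17, and -0.05 to 0.75 in uninjured-sire libraries except replicate 22, at 1.73. Replicates 17 and 22, the same 2 that lay at the other group's level for Nr3c2, thus scored between the other libraries of the 2 groups. Replicate 17 was nearer the other group's libraries at -0.05 to 0.75, and 22 nearer the injured-sire libraries at 2.23 and above. Replicate 16 scored 1.41, between most libraries of either group, while its Nr3c2 level was the lowest of the 12.

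Within groups, Nr3c2 followed the clock score (r = 0.90, permutation p = 0.0114, adjusted 0.0401; rho = 0.73, permutation p = 0.0217, adjusted 0.0824), but r was 0.19 without replicates 17 and 22, so the relation rests on those libraries. Nr3c1 did so over its narrow range (r = 0.83, permutation p = 0.0052, adjusted 0.0329; rho = 0.78, permutation p = 0.0105, adjusted 0.0664), with r = 0.53 without them. Cdkn1a (r = -0.80, permutation p = 0.00714, adjusted 0.0339; rho = -0.68, permutation p = 0.0291, adjusted 0.0882) and Zbtb16 (r = -0.72, permutation p = 0.0168, adjusted 0.0456; rho = -0.64, permutation p = 0.0476, adjusted 0.101) ran opposite to it, with r = -0.39 and -0.13 without replicates 17 and 22. Fkbp5 had r = -0.57 and Hsd11b1 r = 0.51, and neither passed (adjusted permutation p = 0.185 and 0.203). For Tsc22d3, Sgk1, Klf9 and Ddit4 the groups differed in sign, so r over all 11 libraries (-0.04, 0.00, -0.01 and -0.17) describes neither group. In the injured-sire libraries r was -0.77, 0.43, -0.36 and -0.69 in that order. In the 6 uninjured-sire libraries it was 0.72, -0.73, 0.18 and 0.36. Those differences were not tested. None of the 4 relations of Nr3c2, Nr3c1, Cdkn1a and Zbtb16 with the clock score passed without replicate 17, without replicate 20 or without replicate 22. The adjusted permutation p without replicate 17 was 0.139 to 0.14, without 20 it was 0.0571 to 0.106, and without 22 it was 0.0913 to 0.326. Without replicates 12, 14 or 23, 1 of the 4 passed. The correlation of Zbtb16 was lost without 15 (adjusted permutation p = 0.0715) and with replicate 16 included (0.0548), and that of Nr3c2 without 19 (0.062).

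**Figure D4:**
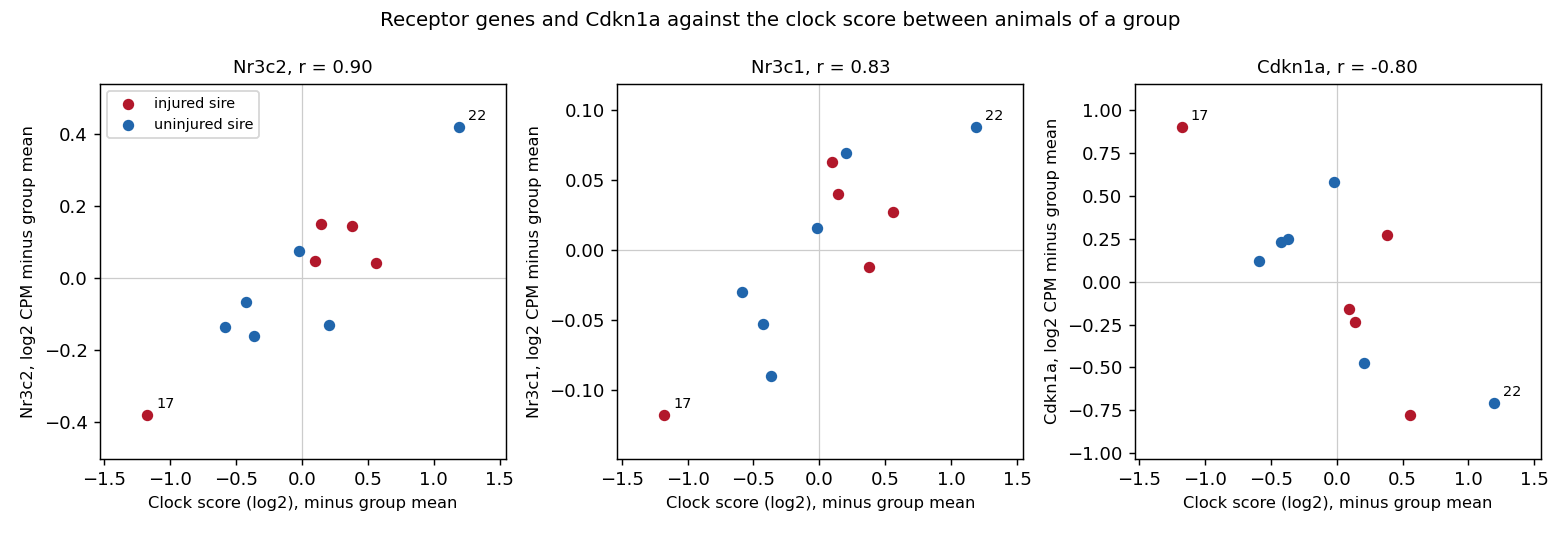
Log2 CPM of Nr3c2, Nr3c1 and Cdkn1a against the clock score, each minus its group mean, for the 5 injured-sire (red) and 6 uninjured-sire (blue) libraries, with replicates 17 and 22 labelled. Replicates 17 and 22 lie at the 2 ends of the clock score, and the slope of Nr3c2 rests on them (r = 0.90 with them, 0.19 without).

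With the clock score as a covariate in the edgeR fit, no gene of the 17130 passed, and the fold changes of the 10 genes moved in 2 directions. Those of Fkbp5 (0.94), Zbtb16 (0.95) and Cdkn1a (1.08) became higher, on the log2 scale, and those of Nr3c2 (-0.11), Nr3c1 (-0.08) and Hsd11b1 (-0.47) became negative. Ddit4 (0.51), Sgk1 (0.28), Klf9 (0.14) and Tsc22d3 (0.22) lay close to their values without it. No adjusted p of the 10 was below 0.775 in that fit. The clock score and the group move together in these libraries, so their parts cannot be told apart.

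**Figure D5:**
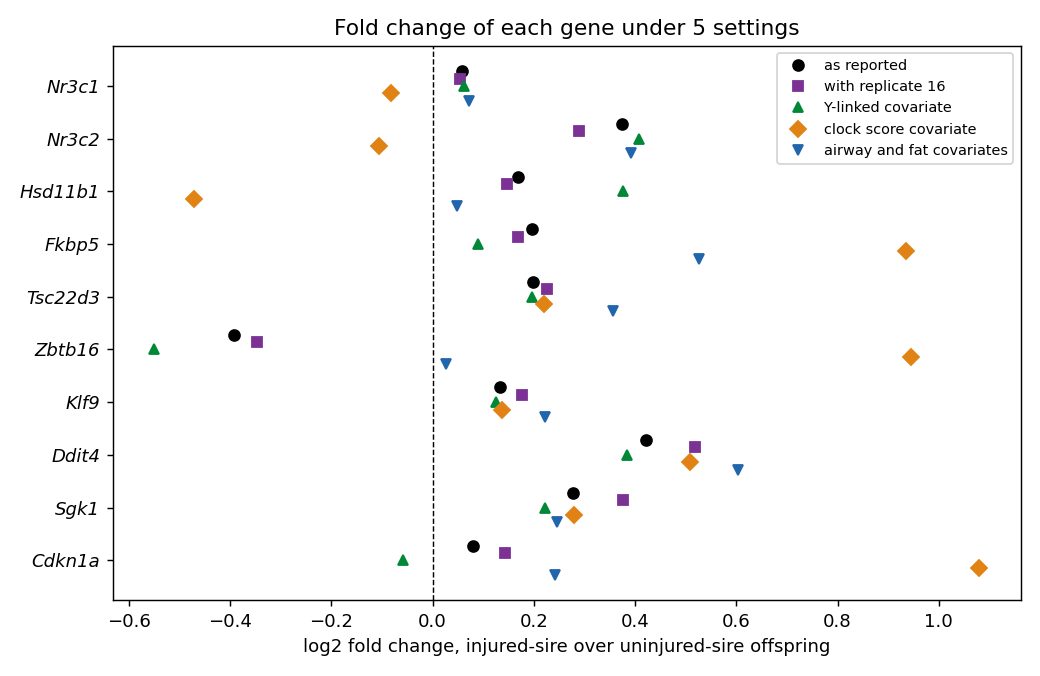
Log2 fold change of each gene, injured-sire over uninjured-sire offspring, as reported and under 4 alternatives of the edgeR fit. The clock score covariate (orange diamonds) raises Fkbp5, Zbtb16 and Cdkn1a to between 0.94 and 1.08 and takes Nr3c2, Nr3c1 and Hsd11b1 below 0, while Ddit4 stays between 0.38 and 0.60 under all 5 settings.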

How the data were processed

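RNA of heart ventricle was measured in 12 libraries. The deposited counts are raw reads per Ensembl gene, made by the authors with featureCounts 2.1.1 with strand setting 2 (reverse) and no option for multi-mapping reads, per the file headers, with Ensembl release 114 of GRCm39. Other tools in the submitters' processing notes are STAR 2.7.10a, Subread 2.0.3, Salmon 1.9.0 and DESeq2 1.44.0. The table's 11 further sample columns belong to no labelled sample and stayed out of every step. Symbols came from a supplied table of gene names (51487 of 78317 IDs, 99.3% of counts).

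In R 4.3.3, genes were filtered with edgeR 4.0.16's filterByExpr (minimum count 10 and total 15), scaled by TMM and tested with its robust quasi-likelihood F test. P-values were two-sided and Benjamini-Hochberg adjusted over 17130 genes, with a threshold of 0.05. Log2 CPM carry a prior count of 2. CPM per kilobase divide by the exon length deposited in the table. Standard errors were computed as the absolute log2 fold change over the root of F, and 95% confidence intervals reached a median of 0.262 (log2) to each side. No library repeated another: over 30 same-group pairs, chi-square divided by its degrees of freedom was 14.3 to 45.4. The fit and the correlations were tested on simulated data. Alternatives were all 12 libraries, each library left out, RLE, upper-quartile and no scaling factors, DESeq2 1.42.0, limma 3.58.1 voom, other filters, no mitochondrial genes, a threshold of 0.1, and Y-linked, clock, and airway and fat scores as covariates. The 10 genes, the gene lists and the alternatives were chosen with earlier results of these data known. Named from each list were the 3 genes with the smallest p and every called gene; some of these are not reported here. Ddit3 matched 2 IDs and was left out.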

Additional observations from a re-analysis of the deposited data

Results flagged for a closer look

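In the 20 group values of the 10 genes, 3 single libraries stood apart from the rest of their group by Dixon's test at 95%, a rate at which chance flags about 1 in 20 groups. They were Nr3c2 in injured-sire replicate 17 (14.2 CPM), Nr3c2 in uninjured-sire replicate 22 (19.1 CPM) and Fkbp5 in uninjured-sire replicate 19 (78.3 CPM). Replicate 16, outside the comparison, lay above all 6 uninjured-sire libraries for 4 genes: Ddit4 (272 CPM), Klf9 (353 CPM), Tsc22d3 (217 CPM) and Sgk1 (214 CPM).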

How the results depend on the processing

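None of the 10 genes was called in 21 of 24 alternatives, and 1, Ddit4, was called with the DESeq2 Wald test, with no filter and with airway and fat covariates. No paired analysis was possible because no replicate number occurs in both groups. Over all genes, 18 calls became 134 with the DESeq2 Wald test, 236 with no filter, 28 with a filter of 1 CPM in 5 libraries, 49 at a threshold of 0.1 and 0 with the clock covariate (940 at an unadjusted p below 0.05), and leaving out 1 library gave 8 to 43. Of the other list genes, 1 was called (Nfkbia), against 6 with the DESeq2 Wald test, 7 with no filter, 2 with no scaling factor or a threshold of 0.1, and 0 with the clock covariate, and leaving out 1 library gave 1 to 2. The second was Klf13 without replicate 15 or 19, and Per1 without 22. Groups of the 10 genes did not overlap in 0 cases, and leaving out 1 library gave 0 to 1 (Ddit4 without 14, against 0.835% of all genes higher; Klf9 without 19, against 0.88%). Of the 19 correlations 7 passed, and 1 to 7 did with 1 library left out. None of the following values was called. Signs turned for Fkbp5 (-0.000357 without replicate 17, in a range of up to 0.48 without 19), Zbtb16 (0.946 with the clock and 0.0273 with the airway and fat covariates), Cdkn1a (-0.212 without replicate 17, -0.036 without 22, -0.00798 without 23, in a range of up to 0.235 without 14, and -0.0579 with the Y-linked covariate), and, with the clock covariate, Nr3c1 (-0.0818), Nr3c2 (-0.106), Hsd11b1 (-0.472), Crebbp (0.00504) and Srd5a1 (-0.173). Asns turned to -0.118 with the airway and fat covariates. The causes were not tested. Depth limits Hsd11b1 most, at 103 to 290 counts.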

Other observations

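Relatives of the 10 genes by sequence were listed as well, 15 in all, of which 14 had enough counts, and none was called (7 higher, 7 lower, median log2 fold change -0.01). The Krüppel-like genes had the 3 smallest p among them. Klf13 had 114.6 ± 12.2 CPM (SD, n = 5) in injured-sire and 91.5 ± 8.92 CPM (SD, n = 6) in uninjured-sire offspring, 0.32 ± 0.0737 as log2 fold change (SE, edgeR adjusted p = 0.0909). Klf11 had 15.7 ± 2.099 CPM in injured-sire and 20.6 ± 1.70 CPM in uninjured-sire offspring (-0.39 ± 0.0946, edgeR adjusted p = 0.125). It was the only one of the 14 with groups that did not overlap, against 0.625% of all genes tested in that direction. Klf10 had 24.0 ± 3.15 and 29.2 ± 4.02 CPM (-0.28 ± 0.0997, edgeR adjusted p = 0.357). Klf13 passed the threshold of 0.05 in 6 of 24 alternatives, among them the fit with airway and fat covariates (0.47, edgeR adjusted p = 0.00873), with a log2 fold change of 0.27 to 0.47 over the 24.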
